A study of Anopheles dirus with 6 samples.

Results

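RNA from whole *An. dirus* females of the Hainan strain was sequenced 24 h after a blood meal in 3 AdBs24h and 3 AdCtrl24h libraries, and 63 gene IDs that were well expressed and higher in AdBs24h are described here, of 13250 IDs in the table. AdBs24h females, written AdLs24h in the paper, had survived a sublethal dose of *Lysinibacillus sphaericus* (formerly *Bacillus sphaericus*, Bs) strain 2362 given to the larvae, whereas AdCtrl24h females came from larvae that received no bacterium. Both groups were reared alike on sugar solution and then took a blood meal, and each library came from a pool of 30 mosquitoes per the labels. The paper describes 3 independent biological replicates per group, and the exposed larvae were in the third instar per the paper and early in the fourth per the labels. The comparison asks which transcripts differ in adult females after exposure in the larval stage.

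The 63 IDs were selected on the measured values themselves. An ID had to be listed in exactly 1 row, lie outside the 100 such IDs with the highest AdCtrl24h mean, reach a mean of at least 10 TPM over the 6 libraries, have its lowest AdBs24h value above its highest AdCtrl24h value, and have an AdBs24h mean of at least 1.4 times the AdCtrl24h mean. TPM (transcripts per 1000000) is the share of a transcript among all transcripts of a library after correction for its length. The difference between the groups is therefore what defined these IDs, and it is given as a description with no test. The table pairs no ID with a gene name, so the functions of the 63 IDs, and markers of the tissues in a whole mosquito, were not analysed here.

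*L. sphaericus* kills mosquito larvae with a crystal toxin that binds a receptor on the midgut epithelium. In the adult female a blood meal starts digestion in the midgut and the making of yolk proteins, above all vitellogenin, in the fat body, from where they are taken up by the growing oocytes. A library of whole females sampled at this stage mixes all of these tissues. More cells of a type and more RNA per cell cannot be told apart in such libraries.

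The listed values summed to 497690 to 520670 TPM in AdBs24h libraries and 511952 to 524312 TPM in AdCtrl24h libraries. TPM keeps no read counts, so the number of reads behind a single value is unknown. Read totals per library are stated by the authors and were not used here. AdBs24h replicate 3 stood farthest from the controls. Its root mean square log2 difference from AdCtrl24h libraries was 0.63 to 0.71, against 0.56 to 0.61 for AdBs24h replicates 1 and 2. Within the groups the same measure was 0.58 to 0.62 between AdBs24h libraries and 0.52 to 0.55 between AdCtrl24h libraries, so AdBs24h replicates 1 and 2 lay about as near to the controls as to the other AdBs24h libraries.

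Of the 13077 IDs in a single row, 3546 met the limits on level and could be chosen. All AdBs24h libraries lay above all AdCtrl24h libraries for 337 of these (9.50%). An AdBs24h mean of at least 1.4 times the AdCtrl24h mean was reached by 95 IDs, of which 63 had no overlap and 32 had overlapping libraries. The remaining 274 IDs without overlap were higher by less than 1.4 times. The same limits turned round, for IDs lower in AdBs24h, were met by 70 IDs. In that direction 384 IDs were lower without overlap and 122 were lower by a factor of at least 1.4. The median ratio of the AdBs24h to the AdCtrl24h mean over all 3546 IDs was 1.00. Of the 100 most abundant IDs that were left out, 9 were higher without overlap and 0 met the limit on fold. Of 65 IDs with several rows and a mean of at least 10 TPM, 3 met the other limits after their rows were summed.

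**Figure D1:**
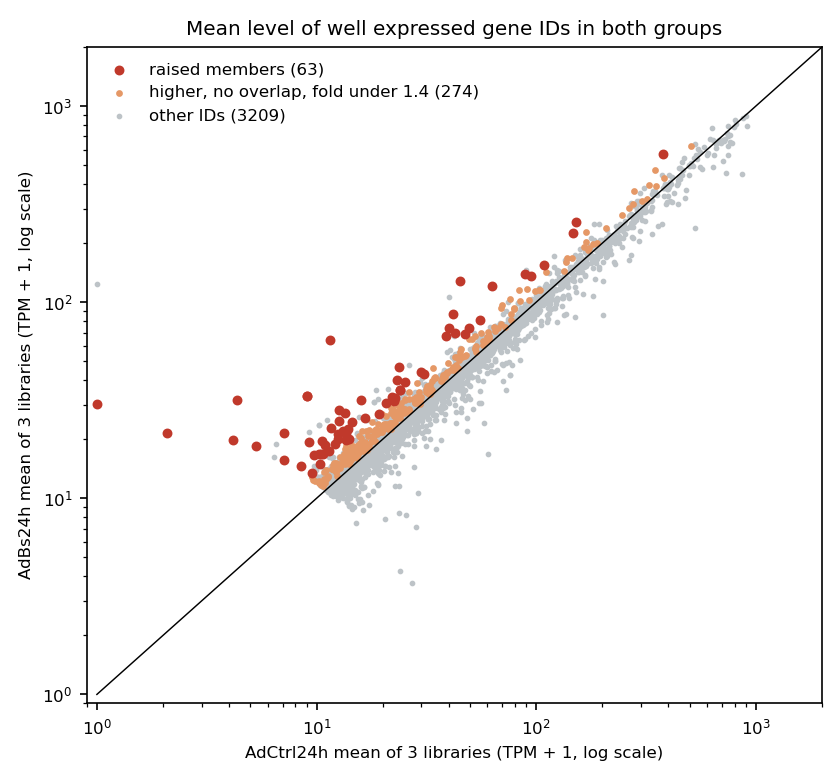
Mean of the 3 AdBs24h libraries (vertical axis) against the mean of the 3 AdCtrl24h libraries (horizontal axis) for the 3546 IDs that could be chosen, as TPM + 1 on log scales, with the line of equal means. The 63 raised IDs (red) lie above the line by definition of the rule, and most of them lie close to the 274 IDs that were higher without overlap by less than 1.4 times (orange).

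The raised IDs together held 3151, 3507 and 3682 TPM in AdBs24h replicates 1, 2 and 3, against 2054, 1908 and 2012 TPM in AdCtrl24h replicates 1, 2 and 3. This was 0.605% to 0.710% of the listed total in AdBs24h libraries and 0.365% to 0.393% in AdCtrl24h libraries. The 4 most abundant members made up 34.8% of the summed AdBs24h level. The group is thus a small share of the transcripts, spread over many IDs of moderate level. A mean of 10 to 20 TPM was found for 31 of the 63 IDs (49.2%), against 34.3% of the 3546 IDs. Between 20 and 50 TPM lay 17 members, between 50 and 100 TPM lay 9, and 6 were at 100 TPM or more (9.52%, against 13.4% of the 3546 IDs). The median mean level was 20.1 TPM for the raised IDs and 27.5 TPM for all IDs that could be chosen.

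Most of the raised IDs differed by a modest factor. The median ratio of the group means was 1.70. It was 1.4 to 1.5 for 13 IDs, 1.5 to 2 for 32, 2 to 3 for 9 and 3 or more for 8, and 1 ID was listed at 0 in every AdCtrl24h library and has no ratio. Compared library by library, the lowest AdBs24h value was a median of 1.23 times the highest AdCtrl24h value. This stricter ratio reached 1.2 for 36 IDs and 1.4 for 18, and it stayed under 1.1 for 7, whose groups nearly met. The ID without a ratio is included in the 36 and the 18, and it is ranked highest in the medians of 1.70 and 1.23. Relative to the AdCtrl24h mean of each ID, the median level of the members was 1.58 in AdBs24h replicate 1, 1.68 in replicate 2 and 1.79 in replicate 3.

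**Figure D2:**
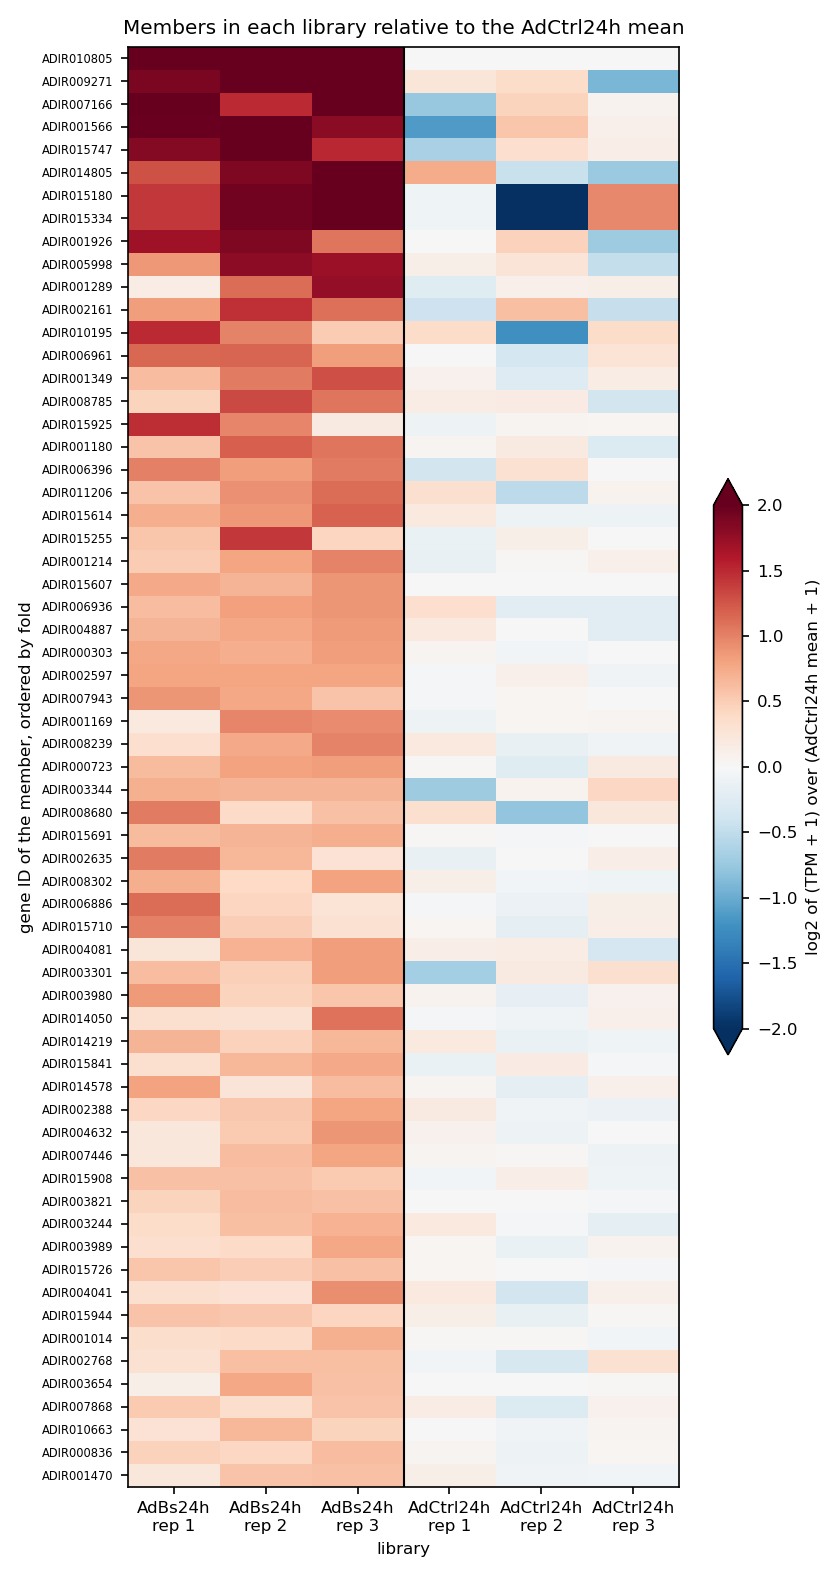
Each row is 1 of the 63 raised IDs, ordered by fold, and each column is a library, with AdBs24h on the left of the black line and AdCtrl24h on the right; the colour is the log2 of TPM + 1 over the AdCtrl24h mean + 1, with values beyond 2 in either direction shown at the end of the scale. The strongest colours belong to the 8 IDs with a fold of 3 or more and the ID listed at 0 in AdCtrl24h, and within AdBs24h the highest TPM of a row is in replicate 3 for 35 of the 63 IDs, although rows beyond the end of the scale show equal colours.

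The 4 most abundant raised IDs were ADIR002388, ADIR000723, ADIR014219 and ADIR000836. ADIR002388 was at 503, 547 and 651 TPM in AdBs24h replicates 1, 2 and 3, against 424, 356 and 347 TPM in AdCtrl24h replicates 1, 2 and 3. Its mean was 567 ± 76.1 TPM in AdBs24h and 376 ± 42.1 TPM in AdCtrl24h (SD over 3 libraries), a fold of 1.51. The highest AdBs24h library was replicate 3, and without it the fold of ADIR002388 dropped just under the limit, to 1.3981. ADIR000723 was at 235, 263 and 268 TPM in AdBs24h libraries, against 153, 127 and 171 TPM in AdCtrl24h libraries, with a fold of 1.70. Its lowest AdBs24h library was 63.9 TPM above its highest AdCtrl24h library, a wider margin relative to the control level than that of ADIR002388.

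ADIR014219 was at 236, 201 and 233 TPM in AdBs24h libraries, against 168, 133 and 138 TPM in AdCtrl24h libraries (fold 1.52). ADIR000836 was at 148, 144 and 166 TPM in AdBs24h libraries, against 112, 100.96 and 111 TPM in AdCtrl24h libraries (fold 1.41). The CV (coefficient of variation, the SD as a percentage of the mean) of ADIR014219 was 8.61% in AdBs24h and 12.8% in AdCtrl24h, above the medians of 8.08% in AdBs24h and 7.0% in AdCtrl24h over all 3546 IDs. That of ADIR000836 was 7.47% in AdBs24h and 5.74% in AdCtrl24h, below both medians.

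The largest differences were found in IDs that were low or listed at 0 in AdCtrl24h, and the AdBs24h libraries of these IDs differed widely from each other. An ID this low in AdCtrl24h could reach the minimum mean over 6 libraries only through high AdBs24h values, so its large fold follows in part from the rule. ADIR010805 was at 33.8, 8.25 and 46.0 TPM in AdBs24h replicates 1, 2 and 3 and was listed at 0 in all 3 AdCtrl24h libraries. Its AdCtrl24h mean of 0 allows no ratio, so no fold is given for it, and a listed 0 can be a failed estimate. ADIR009271 was at 6.68, 43.4 and 11.3 TPM in AdBs24h libraries, against 1.46, 1.67 and 0.10 TPM in AdCtrl24h libraries. Its fold of 19.0 rested on AdBs24h replicate 2, and without that library it was 8.34. ADIR007166 was at 24.5, 11.15 and 56.7 TPM in AdBs24h libraries, against 1.56, 4.88 and 3.54 TPM in AdCtrl24h libraries. Here AdBs24h replicate 3 was the highest, and the fold was 9.26 with it and 5.36 without it.

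ADIR001566 and ADIR015747 had nearly equal folds, both 5.99, and followed each other from library to library. ADIR001566 was at 44.1, 105 and 39.2 TPM in AdBs24h libraries, against 4.24, 15.8 and 11.35 TPM in AdCtrl24h libraries. ADIR015747 was at 13.8, 31.95 and 10.7 TPM in AdBs24h libraries, against 1.65, 4.23 and 3.56 TPM in AdCtrl24h libraries. Both were highest in replicate 2 of AdBs24h and in replicate 2 of AdCtrl24h. The level of ADIR001566 was 3.19, 3.29 and 3.65 times that of ADIR015747 in AdBs24h libraries and 2.57, 3.74 and 3.19 times in AdCtrl24h libraries, although each ID varied more than 2-fold within each group. Without AdBs24h replicate 2 the folds were 3.98 for ADIR001566 and 3.901 for ADIR015747. This pair was singled out after the values were seen, and a shared source of its counts was not tested.

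Singled out after the values were seen, ADIR015180 and ADIR015334 had the same values in every library, 23.0, 33.5 and 39.8 TPM in AdBs24h replicates 1, 2 and 3, against 7.48, 0 and 16.65 TPM in AdCtrl24h replicates 1, 2 and 3. Identical rows occurred for 6 of the 3546 IDs, in pairs, so the 63 IDs hold 62 separate sets of values. Near-identical copies, between which the quantification divides the reads, can give such a pair, but this was not tested. The fold of both was 3.99, and it was 2.66 without AdCtrl24h replicate 2, the library listed at 0, and 8.59 without AdCtrl24h replicate 3. The size of this fold thus depended on single control libraries.

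The other IDs with a fold of 3 or more, also named after their values were seen, were ADIR014805 (4.07) and ADIR001926 (3.33). ADIR014805 was at 11.8, 18.1 and 22.2 TPM in AdBs24h libraries, against 7.80, 2.87 and 2.15 TPM in AdCtrl24h libraries. Its fold was 6.93 without AdCtrl24h replicate 1, the highest control library. ADIR001926 was at 22.2, 25.1 and 14 TPM in AdBs24h libraries, against 6.16, 8.87 and 3.38 TPM in AdCtrl24h libraries. In contrast to most of the raised IDs it was lowest in AdBs24h replicate 3.

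Larger folds at higher levels were few. Among members that averaged 50 TPM or more, ADIR005998 had the largest fold, 2.90, with 81.3, 154 and 146 TPM in AdBs24h libraries, against 47.6, 52.8 and 31.3 TPM in AdCtrl24h libraries. ADIR006961 followed with a fold of 2.11, at 91.2, 92.9 and 73.5 TPM in AdBs24h libraries, against 41.1, 31.6 and 49.4 TPM in AdCtrl24h libraries. ADIR015614 was at 103, 114 and 141 TPM in AdBs24h libraries, against 70.9, 57.4 and 57.6 TPM in AdCtrl24h libraries (fold 1.92). These 3 IDs were named after their values were seen. In each of them the gap between the groups was at least 24.1 TPM. Members at similar levels could also rest on narrow gaps. ADIR003654, named after its values were seen, was at 102, 160.3 and 141 TPM in AdBs24h libraries, against 92.4, 93.1 and 94.8 TPM in AdCtrl24h libraries, so that its controls were steady while AdBs24h replicate 1 lay close to them. Also named after the values were seen, ADIR004041 was at 58.3, 56.7 and 89.2 TPM in AdBs24h libraries, against 53.3, 35.95 and 50.1 TPM in AdCtrl24h libraries.

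A further set of raised IDs stood out among the members by how little the libraries of a group varied. ADIR002597 was at 66.1, 66.5 and 66.2 TPM in AdBs24h libraries, against 37.4, 40.6 and 35.9 TPM in AdCtrl24h libraries, with a CV of 0.291% in AdBs24h and 6.30% in AdCtrl24h. ADIR000303 was at 38.8, 37.55 and 40.8 TPM in AdBs24h libraries, against 23.2, 21.6 and 22.3 TPM in AdCtrl24h libraries. Both had a fold of 1.75, which stayed within 1.70 to 1.81 whichever library was left out. The distance between the groups was therefore several times the spread within them, and no single library carried it.

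ADIR015691 was at 18.3, 19.0 and 19.75 TPM in AdBs24h libraries, against 11.7, 11.3 and 11.5 TPM in AdCtrl24h libraries (fold 1.66). ADIR015726 was at 80.6, 76.55 and 82.2 TPM in AdBs24h libraries, against 55.6, 53.9 and 53.5 TPM in AdCtrl24h libraries (fold 1.47). ADIR015607 was named after its values were seen. Apart from ADIR010805, listed at 0 throughout AdCtrl24h, it had the steadiest controls of the 63 IDs, at 8.67, 8.67 and 8.77 TPM. Its AdBs24h libraries were at 15.4, 14.6 and 16.9 TPM (fold 1.80). These IDs show that low and high levels alike occurred among the steady members. In all, the CV was under 10% in both groups for 8 of the 63 IDs and under 20% in both for 27, and it was 50% or more in at least 1 group for 10. Over all 3546 IDs the median CV was 8.08% in AdBs24h and 7.0% in AdCtrl24h, so a low spread is not particular to these IDs.

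**Figure D3:**
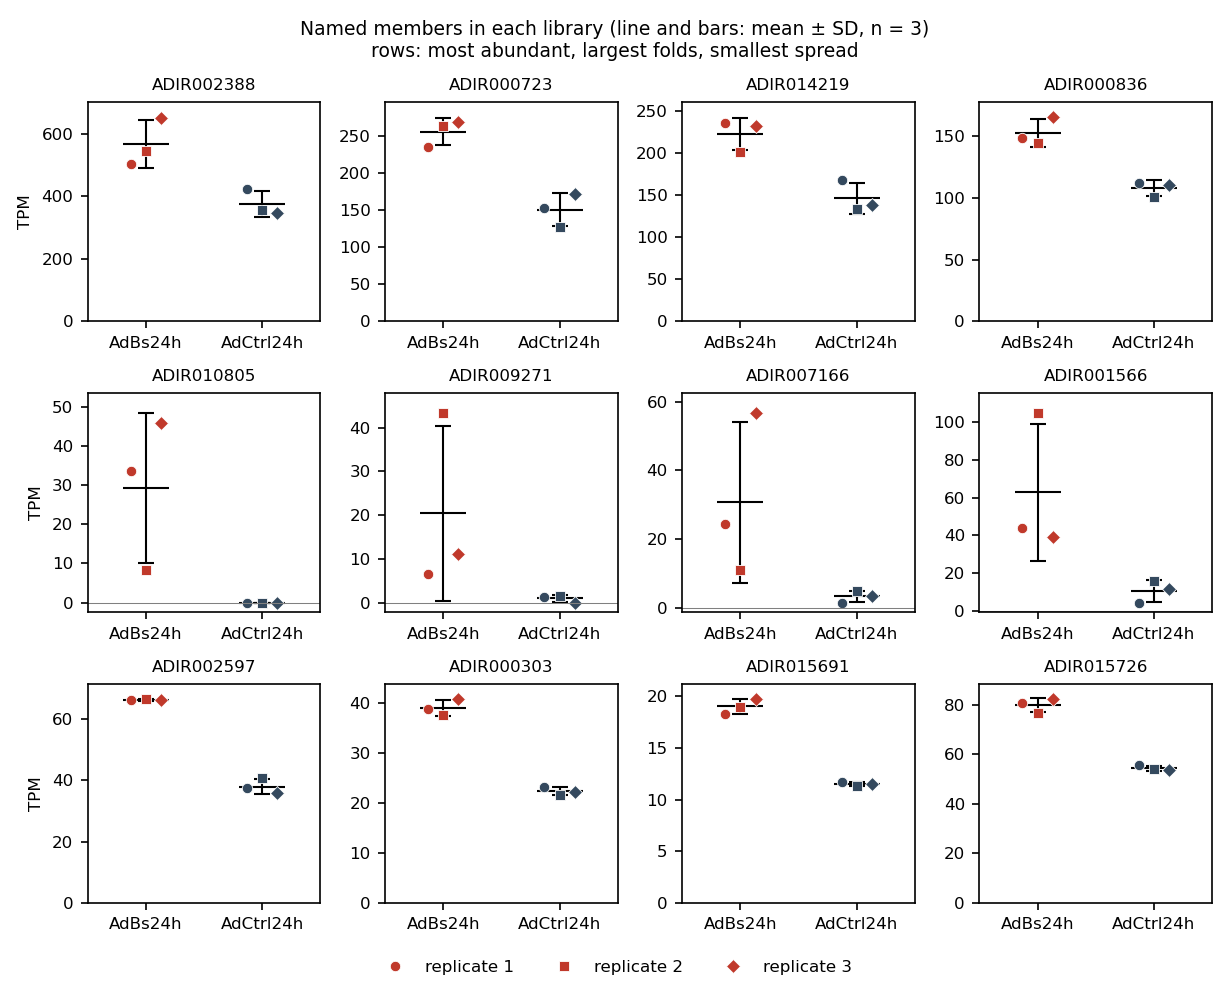
TPM in each library for 12 raised IDs, with AdBs24h (red) left of AdCtrl24h (dark blue), a marker per replicate, and the mean ± SD of 3 libraries as line and bars; each vertical axis includes 0. The abundant IDs (top row) and the steady IDs (bottom row) differ by 1.41 to 1.75 times, whereas in the IDs with the largest differences (middle row) the AdBs24h libraries spread over a wide range, from 8.25 to 46.0 TPM for ADIR010805.

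The libraries did not share the rise equally. Of the 63 IDs, 35 (55.6%) were highest in AdBs24h replicate 3, 16 in replicate 2 and 12 in replicate 1, and 33 (52.4%) had their lowest AdBs24h value in replicate 1. Over all 3546 IDs, 39.6% were highest in AdBs24h replicate 3 and 38.7% were lowest in replicate 1. The 274 IDs that were higher without overlap by less than 1.4 times lay nearer to the raised IDs, with 51.8% highest in replicate 3 and 50% lowest in replicate 1. Among AdCtrl24h libraries, replicate 2 was the lowest for 28 of the raised IDs (44.4%), for 54.4% of those 274 IDs and for 39.8% of all 3546. These shares are counts over the same libraries and carry no test. That AdBs24h replicate 3 differed most from the controls over all IDs moves with these counts, and its part in them was not tested.

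Examples of each order, chosen after the values were seen, were ADIR015925 and ADIR014050. ADIR015925 was highest in AdBs24h replicate 1, at 34.1, 23.9 and 13.3 TPM in AdBs24h replicates 1, 2 and 3, against 10.8, 12.05 and 12.0 TPM in AdCtrl24h libraries. ADIR014050 was highest in AdBs24h replicate 3, at 19.8, 19.5 and 34.4 TPM in AdBs24h replicates 1, 2 and 3, against 15.2, 14.8 and 16.9 TPM in AdCtrl24h libraries. In both IDs 1 AdBs24h library held most of the difference while the controls lay within a narrow range. The fold of ADIR014050 was 1.57 with all libraries and 1.26 without AdBs24h replicate 3. AdBs24h libraries differed 2-fold or more from each other for 9 of the 63 IDs and less than 1.2-fold for 15. The median CV of the raised IDs was 19.2% in AdBs24h and 12.7% in AdCtrl24h, against 8.08% in AdBs24h and 7.0% in AdCtrl24h over all 3546 IDs. The CV was larger in AdBs24h for 63.5% of the raised IDs and for 59.1% of all 3546 IDs.

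Leaving out 1 library at a time showed how far single libraries carried the folds. The fold stayed at 1.4 or more for 42 of the 63 IDs whichever library was left out, and it dropped under 1.4 for 21 in at least 1 case. ADIR010805, which has no fold, is counted among the 42 and ranked highest in the medians below. Without AdBs24h replicate 3 it was under 1.4 for 11 IDs, without AdCtrl24h replicate 2 for 8, without AdBs24h replicate 1 or AdBs24h replicate 2 for 4 each, and without AdCtrl24h replicate 1 or AdCtrl24h replicate 3 for 2 each. The lowest fold in any of these cases was 1.24, for ADIR004041 without AdBs24h replicate 3. The median fold of the 63 IDs was 1.66 to 1.73 in these cases, and 1.71 without AdBs24h replicate 3.

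The limits of the rule could be read in libraries not used for a choice, although part of the outcome is fixed in advance. The raised IDs themselves could not be checked in this way, since every library was used to define them. The same limits were applied to 2 AdBs24h and 2 AdCtrl24h libraries, and the chosen IDs were then read in the AdBs24h and the AdCtrl24h library that had been left out, for each of the 9 such pairs. From 4 libraries 78 to 118 IDs were chosen, with a median fold of 1.59 to 1.69 in the libraries that chose them. Of the chosen IDs, 47 to 62 per pair were among the raised IDs. Those are higher in any left-out pair by definition, as their groups do not overlap. The shares below therefore describe the limits and give no separate support for the raised IDs. In the libraries left out, 66.3% to 85.9% of the chosen IDs were higher in AdBs24h, against 42.0% to 54.9% of all IDs that could be chosen. The median fold of the chosen IDs was 1.2 to 1.55 there, against 0.978 to 1.03 for all IDs. At least 1.4 times higher were 30.7% to 64.1% of the chosen IDs, against 4.07% to 6.82% of all IDs. The share at least 1.4 times lower was not counted. The share at least 1.4 times higher alone therefore cannot tell a rise from a wider spread in both directions. In each of the 9 pairs all 3 measures were larger for the chosen IDs than for all IDs. The raised IDs among the chosen fix much of this excess in advance, and the shares without them were not counted. The folds were smaller in the libraries left out than in those used for the choice.

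The share was highest when AdBs24h replicate 2 and AdCtrl24h replicate 2 were left out, with 67 of 78 chosen IDs higher in that AdBs24h library and 11 lower. Of the 67, 55 were raised IDs, higher there by definition. The share was lowest when AdBs24h replicate 3 and AdCtrl24h replicate 3 were left out, with 59 of 89 higher and 30 lower. Of the 59, 49 were raised IDs. Some of the IDs chosen in this way therefore went the other way in libraries not used for the choice, in every pair. By the rule on overlap, none of those was a raised ID. The 9 pairs share libraries and are not independent of each other, so the ranges are a description and carry no test.

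**Figure D4:**
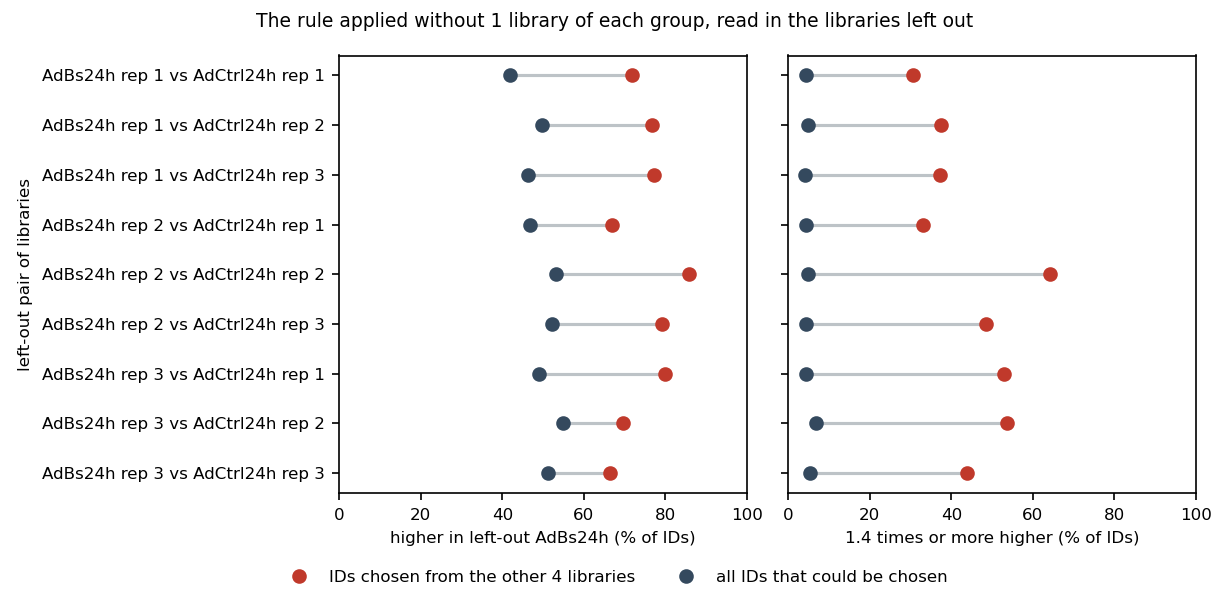
For each pair of left-out libraries (rows), the percentage of IDs higher in the left-out AdBs24h library than in the left-out AdCtrl24h library (left panel) and at least 1.4 times higher (right panel), for IDs chosen from the other 4 libraries (red) and for all IDs that could be chosen (dark blue). The red points lie to the right of the dark blue points in all 9 rows of both panels, at 66.3% to 85.9% against 42.0% to 54.9% on the left. Per row, 47 to 62 of the chosen IDs are raised IDs, which are higher in any left-out pair by definition.

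In the test across the 6315 IDs that averaged 1 TPM or more (limma on log2 of TPM + 1), 5.97% of the IDs were higher in AdBs24h at an unadjusted p under 0.05, and 60 of the 63 raised IDs were among them. At an adjusted p under 0.05 from limma, 0.0633% of the 6315 IDs were called higher, which is 4 IDs, and these were the members ADIR002597, ADIR000303, ADIR015691 and ADIR015726. All 4 were also the members with the smallest spread within the groups. As the raised IDs were chosen from the same contrast, nothing is read from these counts. None of the 4 calls held when any 1 of the 6 libraries was left out. Without AdBs24h replicate 2 limma called another member, ADIR010805, which was listed at 0 in all AdCtrl24h libraries (adjusted p 0.00461). With a pseudocount of 0.1 limma called ADIR010805 too (adjusted p 0.0416). In all, limma called 0 IDs without AdBs24h replicate 3, AdCtrl24h replicate 2 or AdCtrl24h replicate 3, with 584, 477 and 529 IDs in that order at an unadjusted p under 0.05.

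The limits fell within a continuous range of values. Just inside the limit on fold was ADIR001470 (1.4005), at 35.1, 44.85 and 45.5 TPM in AdBs24h libraries, against 32.5, 28.5 and 28.6 TPM in AdCtrl24h libraries, followed by ADIR000836. Just outside it were ADIR006427 and ADIR008171, both with a fold of 1.39. ADIR006427 was at 91.5, 93.6 and 100.4 TPM in AdBs24h libraries, against 72.45, 70.8 and 62.3 TPM in AdCtrl24h libraries, a wider gap between the groups than in ADIR001470.

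By level, ADIR001289 and ADIR001014 were just inside with means of 10.4 TPM, and ADIR000025 (9.77 TPM) and ADIR004640 (9.39 TPM) just outside. ADIR000025 had been steady in both groups, at 11.8, 11.9 and 11.6 TPM in AdBs24h libraries, against 7.54, 7.59 and 8.19 TPM in AdCtrl24h libraries (fold 1.51). By overlap, the closest members were ADIR002768, whose lowest AdBs24h value exceeded its highest AdCtrl24h value by 0.06 TPM, and ADIR001289, where the gap was 0.11 TPM. ADIR001321 missed the limit because AdBs24h replicate 2 was at 18.34 TPM and AdCtrl24h replicate 1 at 18.36 TPM, although its fold was 1.74. ADIR001468 missed it likewise with a fold of 1.71, at 19.0 TPM in AdBs24h replicate 1 and 19.27 TPM in AdCtrl24h replicate 1.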

How the data were processed

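Per the methods of the paper, the authors used Fastp for trimming, HISAT2 for alignment, StringTie for assembly and RSEM for quantification as TPM. The submitters' processing notes name HISAT2 2.1.0 and DESeq2 1.24.0, and the paper names DEGseq. As to the build, it is not given in the sources used. The table names no unit, and the deposited values were read as TPM. The listed rows held 49.8% to 52.4% of a total of 1000000 per library.

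The members and lists were chosen with earlier results of these data known. They were found with Python 3.11.15 and pandas 2.3.3. For the test, several rows of an ID were added up, those averaging less than 1 TPM left out and log2(TPM + 1) compared with limma 3.58.1 in R 4.3.3 (trend, robust, Benjamini-Hochberg adjustment, no block). The rule and the test were run on simulated data as a check of the code. Raised IDs were shifted there by more than the median fold of the members. The check therefore does not measure how well changes of that size are found. A fold on the log2(TPM + 1) scale understates the change of low IDs; folds in the text are ratios of mean TPM.

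IDs were named by a rule: the 4 members highest in mean, in fold and in gap between the groups relative to the AdCtrl24h mean, the 4 with the smallest spread, members called by limma, and IDs just inside and outside each limit. Others are said in the text to have been named after their values were seen. Lists of pathways and tissue markers were planned but not run, since IDs have no names here.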

Additional observations from a re-analysis of the deposited data

How the results depend on the processing

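The rule was met by 63 IDs. Its count was 102 with the minimum mean at 5 TPM and 32 with it at 20 TPM, so it depends on the limit on level. With no minimum of the mean it was 363, counted only over IDs with an AdCtrl24h mean above 0, which leaves out ADIR010805. It was 66 to 93 without 1 library and 78 to 118 without 1 library of each group, where fewer values have to lie apart. With the same listed total in every library 69 IDs met the rule and with median ratio scaling 61, and 61 of the 63 IDs were among them under either scaling. With a fold of at least 1.3 the count was 90, with 1.5 it was 50, and with rows summed and the most abundant IDs kept it was 66. The median fold of the members was 1.65 to 1.73 under the 10 alternatives tried for it. By limma, 6 IDs in either direction were past an adjusted p of 0.05, 3 with a pseudocount of 0.1, 0 with no filter on low values (917 at an unadjusted p under 0.05), 6 when only IDs averaging 10 TPM or more were tested, 5 with median ratio scaling, and 0 to 5 without 1 library. With the replicate number as a block 0 passed (617 at an unadjusted p under 0.05). Same-numbered libraries had residual correlations of -0.0779, 0.0883 and -0.0243, and not every library correlated best with its own number. Whether same-numbered libraries were handled together was not tested, and 3 libraries per group are too few to settle it. The cause of the changes in these counts of IDs was not tested. The 60 members past an unadjusted p of 0.05 numbered 51 to 62 in the other settings. All 63 were higher in AdBs24h in every fit, a direction that the choice of members fixes.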

Other observations

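The following values were singled out after they were seen. ADIR004619 was listed at 0, 153 and 214 TPM in AdBs24h replicates 1, 2 and 3 and at 0 in all 3 AdCtrl24h libraries. It was not among the raised IDs because of the single AdBs24h library at 0. Of the 32 IDs that reached a fold of 1.4 with overlapping libraries, 25 had 2 AdBs24h libraries above every AdCtrl24h library, 6 had 1 and 1 had 0.

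Raised IDs were more frequent among IDs numbered 15000 and above, with 13 of 265 such IDs (4.91%), than among lower numbers, with 50 of 3281 (1.52%). The 13 include both ADIR015180 and ADIR015334, which have the same values in every library. IDs that met the rule turned round showed the same, with 12 of 265 (4.53%) and 58 of 3281 (1.77%). The median CV was 9.77% in AdBs24h and 7.14% in AdCtrl24h for the IDs numbered 15000 and above, and 7.99% in AdBs24h and 6.99% in AdCtrl24h for the others. Neither position nor function was available here for the IDs, and what sets these IDs apart was not tested.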
